A study of Mus musculus with 6 samples.

Results

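A set of 35 genes that code for ribosome biogenesis factors was followed across RNA-seq libraries of KP2 cells, a cancer line established from a pancreatic tumour of a KPC mouse of strain C57BL/6J. The members were given as a list of mouse symbols, matched to the Ensembl gene identifiers of the count files, and make up 35 of the 41388 genes in those files. All 35 were matched, and all 35 passed the filter on low counts that left 12339 genes for testing. The cells were wild type, IRAK4 KO or IRAK4 KO + rescue (called the rescue here), with 2 libraries in each of the 3 groups. All groups were KP2 cells fewer than 10 passages from the derivation of the line, grown in serum-supplemented DMEM, and the KO was made with lentiviral CRISPR vectors carrying guides against the gene. IRAK4 is a kinase of the myddosome, the complex that Toll-like and interleukin-1 family receptors use to activate NF-kB. The labels do not say whether the KO is 1 clone or a pool, what the rescue construct is, or whether the wild-type cells carried a vector. They also leave it unsaid whether replicates were separate cultures, and p-values here measure how far these libraries spread, which may be technical spread.

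Ribosomes are built in the nucleolus, where RNA polymerase I transcribes a long precursor of ribosomal RNA. Small nucleolar ribonucleoproteins (snoRNPs) of the box C/D and box H/ACA kinds modify and help to cleave this precursor, a large processome folds the part that becomes the small (40S) subunit, and other factors, many of them RNA helicases and GTPases, assemble the large (60S) subunit. The genes of these factors are expressed in every growing cell, are known to be induced together when cells increase their growth, and include well-known targets of the transcription factor MYC, which binds the E-box CACGTG.

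That E-box was therefore the motif looked for in the promoters of the 35 genes, taken from RefSeq (GRCm38.p6) as 250 bases before to 50 bases from the transcription start. CACGTG reads the same on both strands, and no other motif was searched. Promoters were matched by symbol for 30 of the 35 genes, and Fbl, Npm1, Bop1, Rrs1 and Rrp12 had no entry. The E-box was found for 8 of these 30 genes, or 26.7%, beside 11.9% of the 9495 tested genes with a promoter and 8.09% of all 27025 genes with a promoter. The 8 were Imp4, Mybbp1a, Nop2, Pes1, Tsr1, Utp18, Utp20 and Wdr43. Their sequences are shown around the motif, which is in capitals, on the strand of the gene and from 5′ to 3′. Nop2, Imp4 and Utp18, whose E-boxes begin 60, 121 and 20 bases before the start, are shown over 100 bases, and the others, whose E-boxes lie within the first 50 transcribed bases, over 30.
Nop2 (chr6:125131776-125131875, + strand): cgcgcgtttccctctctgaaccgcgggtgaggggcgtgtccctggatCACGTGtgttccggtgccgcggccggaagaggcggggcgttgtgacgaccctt
Imp4 (chr1:34439661-34439760, + strand): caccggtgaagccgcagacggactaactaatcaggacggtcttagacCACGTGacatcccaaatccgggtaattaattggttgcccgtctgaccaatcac
Utp18 (chr11:93885767-93885866, - strand): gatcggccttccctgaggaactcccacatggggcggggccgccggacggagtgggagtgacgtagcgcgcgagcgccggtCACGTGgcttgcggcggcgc
Mybbp1a (chr11:72441347-72441376, + strand): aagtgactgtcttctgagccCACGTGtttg
Utp20 (chr10:88826765-88826794, - strand): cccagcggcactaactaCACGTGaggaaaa
Tsr1 (chr11:74898092-74898121, + strand): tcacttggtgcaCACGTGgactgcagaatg
Wdr43 (chr17:71616220-71616249, + strand): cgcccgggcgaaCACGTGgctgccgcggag
Pes1 (chr11:3963965-3963994, + strand): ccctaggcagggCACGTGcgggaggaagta
The E-box began at base 41 of the transcript in Mybbp1a, 38 in Utp20, 25 in Tsr1, 18 in Wdr43 and 3 in Pes1. In the comparisons that follow, 7 of these 8 genes were higher in the KO and Pes1 did not pass the test, a share close to that of all members (31 of 35) and beside 23.2% of all tested genes. A match is a description of the sequence, and no binding was measured.

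The libraries held 7605328 to 11505983 counts each, and single members had from 110 counts (the lowest in any library) to 14465. Genes of the labelled ductal carcinoma type were Krt8, Krt18, Krt19, Krt7, Epcam, Cdh1, Sox9 and Muc1. They summed to 6677 to 6990 normalised CPM (CPM, counts scaled to the library total, here after TMM scaling) in wild type. The sum was 3845 to 3942 for the KO and 4727 to 5597 for the rescue. Of the 8, 6 were at 1 CPM or more in every library. Krt8, Krt18 and Krt19 made up most of the sum. Epcam was at 0.12 in WT 1 and at 0 elsewhere, and Krt7 was under 1 CPM outside wild type. Both rescue libraries lay above both KO libraries for Krt8, Krt18, Krt19 and Sox9, but below them for Cdh1 and Muc1. By library Cdh1 was 363 and 393 (wild type), 176 and 233 (KO), then 141 and 97.6 CPM (rescue). Muc1 was 15.6 and 16.7, 8.61 and 8.14, then 5.45 and 5.06 in that order. Markers of other cells were low, at 4.63 to 5.20 CPM for 9 leukocyte genes (Adgre1, Cd3e and Lyz2 at 0), 12.7 to 28.4 for 8 fibroblast genes (Dcn, Lum and Thy1 at 0) and 0.49 to 2.06 for 5 acinar genes (Amy2a5, Cpa1, Prss1 and Ptf1a at 0). The endothelial sum over 4 genes was 4.63 to 5.37 for wild type. It was 15.96 to 30.7 for KO cells and 14.9 to 38.04 for the rescue. Cdh5 stood at 2.97 to 3.62, 15.9 to 30.5 and 14.6 to 37.8 CPM by group. Nearly all of the KO and rescue sums came from Cdh5, while Kdr was a sizeable part of the wild-type sum. By library Kdr was 1.54 and 1.66 (wild type), 0.08 and 0.11 (KO), then 0 and 0.13 CPM (rescue). By group the fibroblast sum ran from 12.7 to 13.8 for wild type, 14.8 to 22.9 for KO cells and 26.3 to 28.4 for the rescue. Col1a1 was 12.8 and 11.5 (wild type), 11.9 and 7.45 (KO), then 15.5 and 20.5 CPM (rescue). Col3a1 was 0.59 and 0.20, 9.19 and 6.07, then 9.26 and 5.86 in that order. Gm42418, a gene model known to collect reads of ribosomal RNA, had 4.01% to 4.26% of a wild-type library's counts, 2.67% to 2.93% of a KO library's and 3.86% to 3.88% of a rescue library's. The mitochondrial share was 1.39% to 1.65% for wild type, 1.97% to 2.33% for KO cells and 1.30% to 1.86% for the rescue. Irak4 itself stood at normalised CPM of 37.9 and 37.6 in the wild-type libraries, 20.4 and 21.8 in the KO libraries and 492 and 211 in the rescue libraries. Its difference between the KO and wild type did not pass the test (log2 fold change -0.84 with SE 0.33 and adjusted p = 0.057). It was called in 5 of the 14 alternatives described further on. These were the compared groups alone (adjusted p = 4.2e-07), no filter (2.3e-10), a replicate block (0.022) and either rescue library left out (log2 fold changes -0.85 and -0.84). The difference was not called in the others, among them DESeq2 and the other scalings. A CRISPR lesion need not lower the transcript, so this level does not show the state of the protein. Replicates varied by a biological coefficient of variation of 5.08% (wild type), 6.08% (KO) and 10.5% (rescue).

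The first question was whether these genes changed with the loss of Irak4. Of the 35 genes, 31 were higher in the KO than in wild type and 0 were lower, beside 23.2% of all tested genes called higher and 23.5% called lower. Log2 fold changes are given with their standard error (SE). A call is an adjusted p under 0.05 in edgeR's quasi-likelihood test with Benjamini-Hochberg adjustment over all 12339 tested genes. No member was lower at an unadjusted p under 0.05 or in DESeq2 either, where both counts were 0. DESeq2 called 29 members higher, beside 2036 higher and 2346 lower of all 12339 genes. The median log2 fold change of the members was 0.77, beside 0.01 over all tested genes, and the single genes ran from -0.15 for Ddx10 to 1.63 for Rrp12. Past a doubling stood 7 called genes, Rrp12, Rrp9, Nolc1, Nop2, Ddx21, Rrs1 and Utp20. The share of all tested genes past a doubling was not counted. Both KO libraries lay above both wild-type libraries for 33 of the 35 genes, all but Ddx10 and Ddx18, beside 39.1% of all tested genes. Together the members made up 0.303% and 0.317% of all counts for wild type, 0.563% and 0.529% for the KO, and 0.497% and 0.407% for the rescue. These values are shares of the mRNA counted, so a higher level in every cell and more cells with a high level cannot be told apart, and a change in total mRNA per cell would not be seen. The ductal marker sum and the share of Gm42418 were lower in the KO, as given above. The mitochondrial share, Cdh5 and Col3a1 were higher. Kdr was lower, and Col1a1 in the KO overlapped the wild-type range. The part of all of these in the differences of the 35 genes was not tested.

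**Figure D1:**
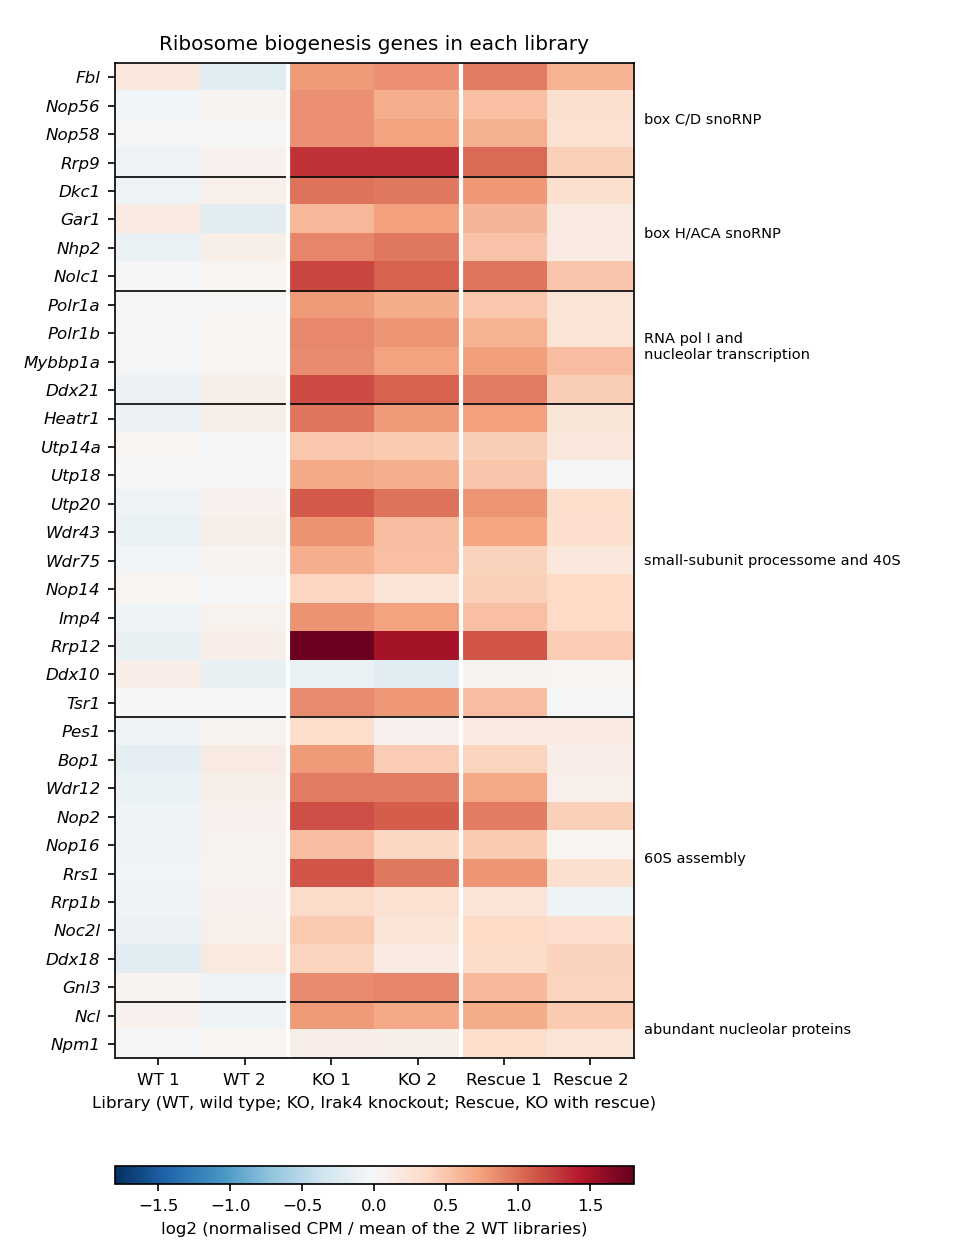
Heat map of the 35 genes (rows, grouped by role) in the 6 libraries (columns). Colour gives log2 of normalised CPM over the mean of the 2 wild-type libraries, from blue (lower) to red (higher). The KO columns are red in all rows but Ddx10, palest for Npm1, Pes1 and Ddx18, and the column of Rescue 2 is lower than that of Rescue 1 in 33 of the 35 rows.

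Box C/D snoRNPs guide ribose methylation of ribosomal RNA, and the 4 members of this class, Fbl, Nop56, Nop58 and Rrp9, were higher in the KO. Snu13, the other core protein of the particle and not among the 35 genes, was not called (log2 fold change -0.21, adjusted p = 0.43). Rrp9 (ENSMUSG00000041506, chromosome 9, 106475963 to 106485424), the protein particular to the U3 snoRNP that starts cleavage of the precursor, stood at normalised CPM of 19.00 and 21.3 in the wild-type libraries, 49.5 and 49.5 in the KO libraries and 40.96 and 27.2 in the rescue libraries. The KO libraries were alike and both far above wild type, and the rescue libraries lay between. It was 2.45-fold higher in the KO (log2 fold change 1.29 with SE 0.16 and adjusted p = 8.0e-05). Nop56 (ENSMUSG00000027405, chromosome 2, 130274430 to 130279313), a scaffold protein at the core of the particle, stood at 76.3 and 81.4 in the wild-type libraries, 139.7 and 124 in the KO libraries and 115 and 95.9 in the rescue libraries. No libraries of different groups overlapped, with the order wild type, rescue, KO. The KO was 1.68-fold above wild type (log2 fold change 0.74 with SE 0.10 and adjusted p = 1.7e-04). Fibrillarin (Fbl, ENSMUSG00000046865, chromosome 7, 28169748 to 28179269), the methyltransferase itself, was measured at 23.6 and 17.9 in the wild-type libraries, 35.2 and 36.8 in the KO libraries and 39.7 and 31.96 in the rescue libraries. Its wild-type libraries differed from each other more than those of the KO, and 1 rescue library was the highest of all 6. The KO was 1.74-fold above wild type (log2 fold change 0.80 with SE 0.15 and adjusted p = 0.001), the largest adjusted p of the 4. Nop58, the partner of Nop56, went from 89.3 ± 1.75 to 153 ± 7.30 CPM (SD, n = 2, log2 fold change 0.78, adjusted p = 2.1e-04).

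Box H/ACA snoRNPs turn uridines into pseudouridines. The 4 members placed in this class, the core proteins Dkc1, Gar1 and Nhp2 with the accompanying protein Nolc1, were higher in the KO, with the highest median of the role classes, a log2 fold change of 0.94. Nop10, the remaining core protein and not among the 35 genes, was not called (log2 fold change -0.12, adjusted p = 0.39). Nolc1 (ENSMUSG00000015176, chromosome 19, 46075863 to 46085528), the nucleolar phosphoprotein that accompanies snoRNPs, stood at normalised CPM of 87.5 and 91.1 in the wild-type libraries, 206 and 187 in the KO libraries and 174 and 127 in the rescue libraries. Both KO libraries were above both rescue libraries, and these above both wild-type libraries. Its level in the KO was 2.199-fold that of wild type (log2 fold change 1.14 with SE 0.13 and adjusted p = 4.5e-05). For Nhp2 (ENSMUSG00000001056, chromosome 11, 51619735 to 51623714), a core protein of the particle, the values were 34.8 and 40.7 in the wild-type libraries, 69.5 and 72.8 in the KO libraries and 53.9 and 41.95 in the rescue libraries. The groups again did not overlap, although Rescue 2 stood just above the higher wild-type library. The KO was 1.88-fold above wild type (log2 fold change 0.91 with SE 0.12 and adjusted p = 1.4e-04). Gar1 (ENSMUSG00000028010, chromosome 3, 129824912 to 129831396), a small core protein, was at 58.5 and 45.6 in the wild-type libraries, 79.1 and 87.2 in the KO libraries and 79.4 and 58.2 in the rescue libraries. The KO stayed above wild type, while Rescue 2 lay inside the wild-type range. The change in the KO was 1.60-fold (log2 fold change 0.68 with SE 0.15 and adjusted p = 0.0028). Dkc1, dyskerin, the pseudouridine synthase whose mutation causes dyskeratosis congenita, went from 52.5 ± 4.61 to 103 ± 1.20 CPM (SD, n = 2, log2 fold change 0.96, adjusted p = 1.7e-04).

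All 4 genes of RNA polymerase I and nucleolar transcription were higher in the KO. Mybbp1a (ENSMUSG00000040463, chromosome 11, 72441355 to 72451768), a nucleolar protein that binds the polymerase, stood at normalised CPM of 352 and 372 in the wild-type libraries, 654 and 598 in the KO libraries and 607 and 533 in the rescue libraries. Both KO libraries were above both wild-type libraries, and Rescue 1 lay between the 2 KO libraries. The KO was 1.73-fold above wild type (log2 fold change 0.79 with SE 0.09 and adjusted p = 6.1e-05). Ddx21 (ENSMUSG00000020075, chromosome 10, 62580248 to 62602298), an RNA helicase that couples transcription of the ribosomal genes to processing, had 125 and 145 in the wild-type libraries, 304 and 281 in the KO libraries and 259 and 183 in the rescue libraries. The 3 groups did not overlap. It was 2.17-fold higher in the KO (log2 fold change 1.12 with SE 0.14 and adjusted p = 8.6e-05). Polr1a (ENSMUSG00000049553, chromosome 6, 71909053 to 71979356), the largest subunit of the polymerase, was at 87.6 and 90.3 in the wild-type libraries, 151 and 141 in the KO libraries and 124 and 104 in the rescue libraries. Its replicates were close in wild type and the KO, and all rescue values lay between those groups. The KO exceeded wild type 1.64-fold (log2 fold change 0.72 with SE 0.10 and adjusted p = 1.4e-04). Polr1b (ENSMUSG00000027395, chromosome 2, 129100995 to 129126594), the other catalytic subunit, stood at 34.7 and 36.2 in the wild-type libraries, 64.5 and 61.8 in the KO libraries and 54.7 and 42.1 in the rescue libraries. The same order without overlap was seen. Its change in the KO was 1.78-fold (log2 fold change 0.83 with SE 0.12 and adjusted p = 1.9e-04).

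Of 11 genes of the small-subunit processome and 40S assembly, 10 were higher in the KO, and Ddx10 did not pass the test. Rrp12 (ENSMUSG00000035049, chromosome 19, 41862852 to 41896153), a factor that helps to export the subunits from the nucleus, had the largest change of the 35 genes, from normalised CPM of 13.1 and 15.5 in the wild-type libraries, 48.4 and 40.2 in the KO libraries and 31.5 and 19.6 in the rescue libraries. Both KO libraries were far above wild type, and the rescue libraries lay between, far apart from each other. Rrp12 was 3.09-fold higher in the KO (log2 fold change 1.63 with SE 0.19 and adjusted p = 5.9e-05). Utp20 (ENSMUSG00000004356, chromosome 10, 88746607 to 88826814), a large processome scaffold, stood at 68.6 and 77.4 in the wild-type libraries, 157 and 144 in the KO libraries and 127 and 91.1 in the rescue libraries. Its groups did not overlap, in the order wild type, rescue, KO. The KO was 2.06-fold above wild type (log2 fold change 1.04 with SE 0.13 and adjusted p = 1.0e-04). Tsr1 (ENSMUSG00000038335, chromosome 11, 74898071 to 74909342), a GTPase-like protein of late 40S maturation, was measured at 35.9 and 35.96 in the wild-type libraries, 64.5 and 61.4 in the KO libraries and 52.8 and 35.4 in the rescue libraries. The wild-type pair was nearly equal, and Rescue 2 was just below it. The KO was 1.76-fold higher (log2 fold change 0.81 with SE 0.15 and adjusted p = 8.5e-04). Ddx10 (ENSMUSG00000053289, chromosome 9, 53098454 to 53248112), an RNA helicase of the DEAD-box family, stood at 53.9 and 45.3 in the wild-type libraries, 45.9 and 43.4 in the KO libraries and 51.1 and 50.7 in the rescue libraries. The KO libraries overlapped the range of wild type, and the KO did not differ from wild type beyond the spread (log2 fold change -0.15 with SE 0.10 and adjusted p = 0.27).

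The other 7 genes of this class rose by smaller amounts than Rrp12 and Utp20. Heatr1, a processome protein also needed for polymerase I transcription, went from 64.04 ± 6.44 to 117 ± 11.2 CPM (SD, n = 2, log2 fold change 0.87, adjusted p = 5.9e-04). For Imp4, which binds the U3 snoRNA complex, the log2 fold change was 0.77 (adjusted p = 1.1e-04). The processome proteins Wdr43, Utp18 and Wdr75 rose by 0.69, 0.67 and 0.60 on the log2 scale (adjusted p = 0.0015, 0.0022 and 5.2e-04). Utp14a, a further processome component, and Nop14, which binds early in 40S assembly, rose least, by 0.48 and 0.31 (adjusted p = 0.006 and 0.015). Both of these calls were lost when 1 library was left out: Utp14a without WT 2 (adjusted p = 0.055), and Nop14 without WT 1, WT 2 or KO 1 (adjusted p = 0.064, 0.11 and 0.17) and in DESeq2 (0.073).

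In 60S assembly 8 of 10 genes were higher in the KO, and Pes1 and Ddx18 did not pass the test. Gnl3 (ENSMUSG00000042354, chromosome 14, 31012434 to 31019089), nucleostemin, a nucleolar GTPase abundant in stem and cancer cells, had the smallest adjusted p of the 35 genes, with normalised CPM of 56.99 and 51.8 in the wild-type libraries, 98.2 and 100.2 in the KO libraries and 81.8 and 71.8 in the rescue libraries. The KO pair was nearly equal and well above the other 4 libraries. Gnl3 was 1.83-fold higher in the KO (log2 fold change 0.87 with SE 0.10 and adjusted p = 3.7e-05). Nop2 (ENSMUSG00000038279, chromosome 6, 125131883 to 125144753), a cytosine methyltransferase of the large ribosomal RNA, stood at 53.9 and 59.8 in the wild-type libraries, 127 and 121 in the KO libraries and 108 and 76.3 in the rescue libraries. The groups did not overlap. Its KO level was 2.18-fold that of wild type (log2 fold change 1.13 with SE 0.14 and adjusted p = 6.7e-05). Rrs1 (ENSMUSG00000061024, chromosome 1, 9545408 to 9547455), which brings the 5S ribonucleoprotein to the large subunit, was at 27.9 and 29.9 in the wild-type libraries, 63.2 and 56.04 in the KO libraries and 50.2 and 35.4 in the rescue libraries. Again the order was wild type, rescue, KO without overlap. The KO was 2.06-fold above wild type (log2 fold change 1.05 with SE 0.14 and adjusted p = 1.5e-04).

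Pes1, Bop1 and Wdr12 form 1 complex (PeBoW) that is needed for maturation of the large subunit, and their transcripts had different fitted changes. Wdr12 went from 22.4 ± 2.46 to 42.6 ± 0.135 CPM (SD, n = 2, log2 fold change 0.92, adjusted p = 7.9e-04) and Bop1 from 69.8 ± 10.9 to 107 ± 16.5 (log2 fold change 0.62, adjusted p = 0.003). The Bop1 call was lost without WT 1 (adjusted p = 0.053) and without KO 1 (0.053). Pes1 (ENSMUSG00000020430, chromosome 11, 3963975 to 3980004) stood at 78.7 and 85.00 in the wild-type libraries, 102 and 86.5 in the KO libraries and 90.7 and 90.7 in the rescue libraries. Its KO libraries were both above wild type, 1 of them by little, and the difference did not pass (log2 fold change 0.21 with SE 0.10 and adjusted p = 0.10). The differences between these 3 genes were not tested against each other. Ddx18 (ENSMUSG00000001674, chromosome 1, 121553835 to 121567989), a helicase of the 60S precursor, was at 19.2 and 25.01 in the wild-type libraries, 29.3 and 24.5 in the KO libraries and 27.8 and 29.4 in the rescue libraries. The lower KO library lay inside the wild-type range, and the difference did not pass (log2 fold change 0.28 with SE 0.14 and adjusted p = 0.13). Nop16, Noc2l and Rrp1b, further 60S factors, rose by 0.47, 0.36 and 0.31 (adjusted p = 0.015, 0.014 and 0.042), and each of these calls was lost when 1 library was left out. Nop16 was lost without WT 1, WT 2 or KO 1 (adjusted p = 0.12, 0.0500006 and 0.14), Noc2l without WT 1 or KO 1 (0.16 and 0.19), and Rrp1b without WT 1, WT 2, KO 1 or KO 2 (0.26, 0.072, 0.20 and 0.098). Rrp1b was also not called by DESeq2 (0.14), with a replicate block (0.066) or with a minimum count of 50 (0.052), and was called in 7 of the 14 alternatives described further on.

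Of the 2 abundant nucleolar proteins, Ncl was higher in the KO and Npm1 did not pass the test. Nucleolin (Ncl, ENSMUSG00000026234, chromosome 1, 86344719 to 86359400), which binds nascent ribosomal RNA, stood at normalised CPM of 749 and 676 in the wild-type libraries, 1209 and 1141 in the KO libraries and 1127 and 987 in the rescue libraries. Both KO libraries were above both wild-type libraries, and Rescue 1 was close to KO 2. Its level was 1.65-fold higher in the KO (log2 fold change 0.72 with SE 0.10 and adjusted p = 1.3e-04). Nucleophosmin (Npm1, ENSMUSG00000057113, chromosome 11, 33152287 to 33163206), the chaperone that makes up much of the granular part of the nucleolus, was at 381 and 397 in the wild-type libraries, 421 and 417 in the KO libraries and 484 and 457 in the rescue libraries. Its KO libraries were above wild type by a small margin, and the rescue libraries were the highest. The difference between KO and wild type did not pass (log2 fold change 0.11 with SE 0.08 and adjusted p = 0.29). Per length, on the deposited RPKM scale, Npm1 had the highest mean level in wild type (139.6), followed by Ncl (66.9) and Mybbp1a (59.7), and Wdr12 (1.79) and Rrp12 (3.17) the lowest. In the KO mean RPKM was 164.2 for Npm1, 120.4 for Ncl and 10.7 for Rrp12.

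**Figure D2:**
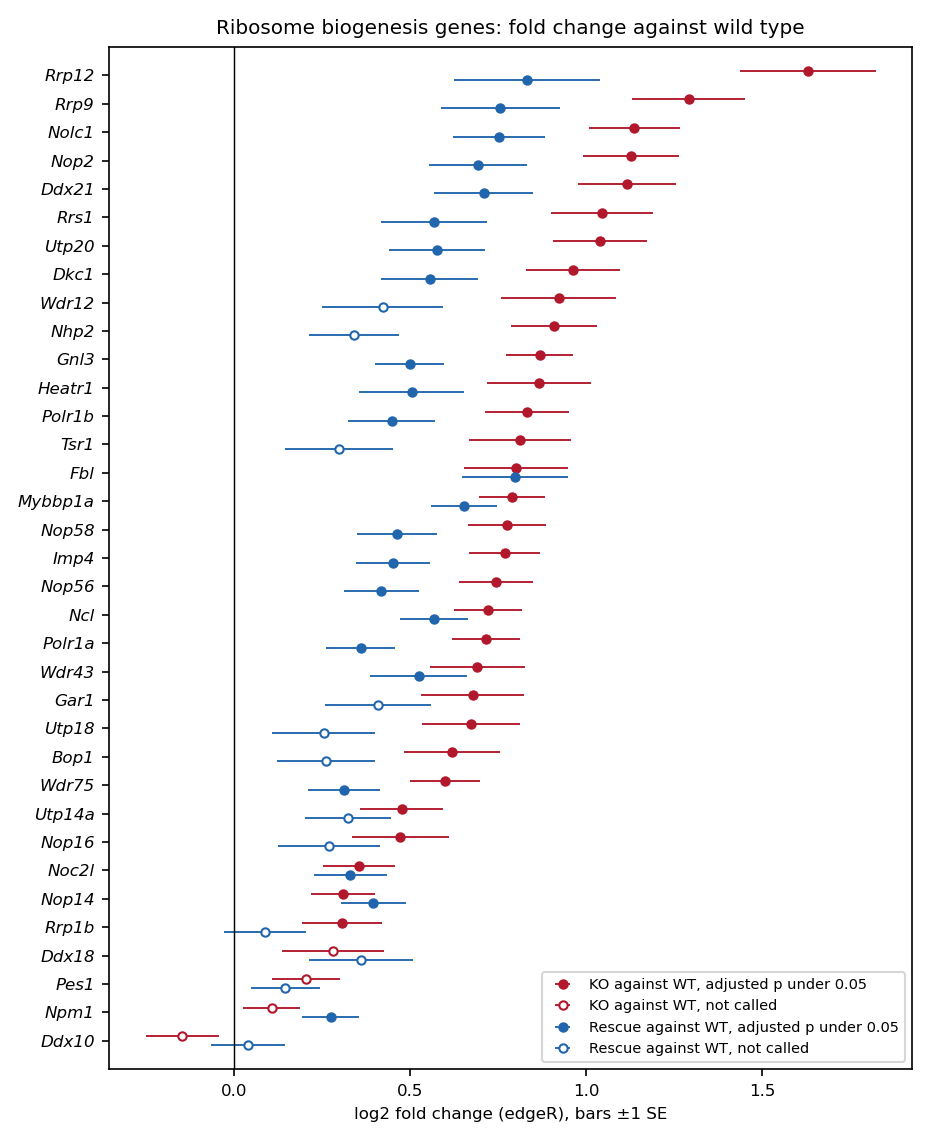
Fitted log2 fold change against wild type of each of the 35 genes in the KO (red) and in the rescue (blue), with bars of 1 SE either side and filled points for an adjusted p under 0.05. The KO points run from -0.15 (Ddx10) to 1.63 (Rrp12), and most rescue points lie between the KO point and the line at 0. Both sets share the wild-type libraries.

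Of the 31 calls, 25 held in each of 14 alternatives (other scalings, filters, DESeq2, the compared groups alone, a replicate block, and each library left out), and the other 6 were Bop1, Noc2l, Nop14, Nop16, Rrp1b and Utp14a. Against a change of 1.5-fold in place of no change, the test called 10 of the 35 higher, beside 479 of all 12339 tested genes. The 10 were Rrp9, Dkc1, Nhp2, Nolc1, Ddx21, Utp20, Rrp12, Nop2, Rrs1 and Gnl3. Scaling by library totals alone moved the median of all genes to 0.14 and that of the members to 0.89, and with it Pes1, Ddx18 and Npm1 were called too. The gap between the 2 medians stayed at 0.76 on the log2 scale.

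The rescue was compared with the KO next, to see which of these levels moved back. Relative to the KO, 10 of the 35 genes were lower in the rescue, beside 5.88% of all tested genes, and 0 were higher, beside 8.35%. No member was higher at an unadjusted p under 0.05 or in DESeq2 (0 by each). DESeq2 called 4 members lower, beside 378 lower and 796 higher of all 12339 genes. At an unadjusted p under 0.05, 21 members were lower, a count not taken over all tested genes. The median log2 fold change was -0.33, beside 0.00 over all tested genes, and it was -0.18 without Rescue 2 and -0.49 without Rescue 1. The KO libraries enter both this comparison and the one above, so their values are given side by side and not as independent results. All 10 were among the 31 higher in the KO. Rrp12 had the largest difference, 1.74-fold lower in the rescue (log2 fold change -0.80 with SE 0.18 and adjusted p = 0.017). For Nhp2 the rescue was 1.48-fold below the KO (log2 fold change -0.57 with SE 0.12 and adjusted p = 0.013), with the smallest adjusted p of the 35. Rrp9 (-0.54, adjusted p = 0.04) and Tsr1 (-0.51, adjusted p = 0.037) followed by size on the log2 scale. Rrs1, Utp20 and Nop2 differed by -0.48, -0.46 and -0.43 (adjusted p = 0.043, 0.038 and 0.0496). Gnl3 and the 2 polymerase subunits Polr1b and Polr1a had the smallest differences of the 10, -0.37, -0.38 and -0.36 (adjusted p = 0.026, 0.049 and 0.033).

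Of the 25 genes without a call, 11 were lower at an unadjusted p under 0.05 (Bop1, Ddx21, Dkc1, Heatr1, Imp4, Nolc1, Nop56, Nop58, Utp18, Wdr12 and Wdr75), with adjusted p from 0.055 for Imp4 to 0.12 for Heatr1. For Fbl the fitted levels were nearly equal (log2 fold change -0.0032, adjusted p = 0.99), and Mybbp1a and Ncl differed by -0.13 and -0.15 (adjusted p = 0.36 and 0.31). The 4 genes not called in the KO, Ddx10, Npm1, Ddx18 and Pes1, differed by 0.19, 0.17, 0.08 and -0.06, none past the test. Both rescue libraries lay below both KO libraries for 24 of the 35 genes, beside 30.1% of all tested genes. None of the 10 calls held in every alternative. Single libraries moved the count of 10, and the count over all tested genes moved the same way, as given further on. The members' median was -0.26 without KO 1 and -0.36 without KO 2, beside 0.00 over all tested genes in both.

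Against wild type, 23 of the 35 genes were higher in the rescue, beside 10.2% of all tested genes, and 0 lower, beside 12.0%. At an unadjusted p under 0.05 these counts were 28 and 0, and they were not taken over all tested genes. DESeq2 called 20 and 0 members, beside 751 higher and 1086 lower of all 12339 genes. The median log2 fold change was 0.42, beside 0.01 over all tested genes and 0.77 for the members in the KO, and it was 0.27 without Rescue 1 and 0.59 without Rescue 2. All 4 box C/D genes and all 4 of the polymerase I class were among the 23, with 2 of 4 box H/ACA genes, 7 of 11 processome genes, 4 of 10 60S genes, and Ncl and Npm1. By adjusted p the foremost were Mybbp1a (1.57-fold, log2 fold change 0.65 with SE 0.09 and adjusted p = 5.3e-04), Ncl (1.48-fold, log2 fold change 0.57 with SE 0.10 and adjusted p = 0.0017) and Nolc1 (1.69-fold, log2 fold change 0.75 with SE 0.13 and adjusted p = 0.0018). These 3 of the 23 were called in all 14 alternatives given above. Npm1, not called in the KO, was higher in the rescue than in wild type (log2 fold change 0.27 with SE 0.08 and adjusted p = 0.031), a call lost with a replicate block (adjusted p = 0.070), with only the compared groups in the fit (adjusted p = 0.061) and without any 1 of WT 1, WT 2, KO 1, KO 2 and Rescue 1 (up to 0.22). Of the 10 genes lower in the rescue than in the KO, 8 were still higher than in wild type, and Nhp2 (0.34, adjusted p = 0.08) and Tsr1 (0.30, adjusted p = 0.19) were not called. A miss of the threshold does not show that these 2 were back at the wild-type level. Single libraries moved the count of 23, and the count over all tested genes moved the same way, as given further on. The members' median was 0.41 without WT 1 and 0.48 without WT 2, beside 0.01 over all tested genes in both.

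In 19 of the 35 genes the 6 libraries ran in the order wild type, rescue, KO without overlap, beside 12.8% of all tested genes. The 2 rescue libraries did not stand at the same place in that order. Relative to the wild-type mean, the median over the members was -0.06 and 0.05 in the wild-type libraries on the log2 scale, 0.81 and 0.73 in KO 1 and KO 2, and 0.59 and 0.28 in Rescue 1 and Rescue 2. Rescue 2 was below Rescue 1 for 33 of the 35 genes, all but Ddx18 and Pes1, beside 49.9% of all tested genes, with a median difference of -0.36. In the KO, library 2 was below library 1 for 30 genes (50.8% of all tested genes, median difference -0.10), and in wild type for 7 (49.0%, median difference 0.11). Libraries of 1 group thus differed in the same direction over most of these genes, so the genes are not independent measures of a group. Rescue 2 was inside or below the wild-type range for 8 genes (Bop1, Ddx10, Gar1, Nop16, Rrp1b, Tsr1, Utp18 and Wdr12), beside 58.2% of all tested genes, and Rescue 1 for Ddx10 only, beside 56.7%. Irak4 stood at 492 CPM in Rescue 1 and 211 in Rescue 2, against 37.9 and 37.6 in wild type, so the rescue library with more Irak4 transcript was the one nearer to the KO. With 2 rescue libraries this relation was not tested.

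**Figure D3:**
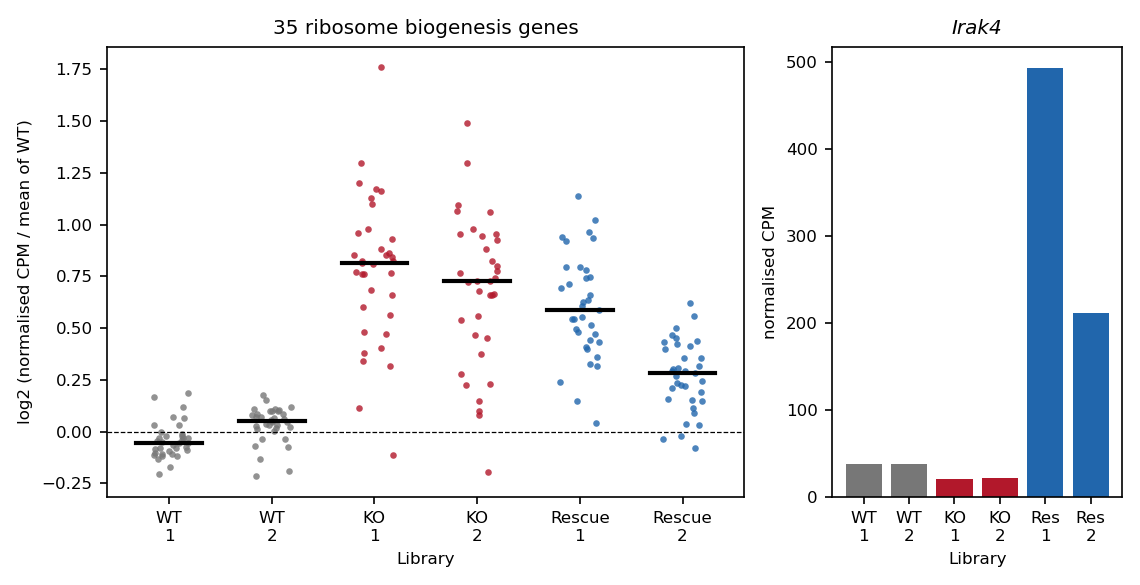
Left, each point is 1 of the 35 genes in 1 library, as log2 of normalised CPM over the wild-type mean, with a bar at the library's median. The medians are -0.06 and 0.05 (wild type), 0.81 and 0.73 (KO), and 0.59 and 0.28 (rescue). Right, normalised CPM of Irak4 in the same libraries, where Rescue 1 (492.2) and Rescue 2 (211.2) are both far above wild type.

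How far the pattern reached beyond the 35 genes was looked at in 4 lists of other ribosome biogenesis genes, 129 in all and 128 tested. The lists were chosen with earlier results of these data known, so they are not an independent check. Of these 73 were higher in the KO and 7 lower, or 57.0% and 5.47%, beside 23.2% and 23.5% of all tested genes, with a median log2 fold change of 0.39. The median of the 35 genes was 0.77, and the difference between the lists was not tested. In the small-subunit list 30 of 43 were higher (69.8%) and 4 lower (9.30%), led by the helicase Dhx37 (log2 fold change 0.92, adjusted p = 1.8e-05) and Tsr2 (1.47, adjusted p = 4.4e-05), which escorts a small-subunit protein. The 4 lower genes were Wdr36 (-0.62), Imp3 (-0.42), Fcf1 (-0.35) and Sbno1 (-0.33). A role of Sbno1 in small-subunit assembly was not checked, and it is counted among the 4 and the 7. Among other 60S genes 31 of 49 tested were higher (63.3%) and 2 lower (4.08%), with Pelp1 (0.93, adjusted p = 1.6e-05) and Mrto4 (0.96, adjusted p = 6.8e-05) foremost. Las1l, the endonuclease partner of Pelp1 in the rixosome, moved the other way (-0.76, adjusted p = 1.2e-04), as did the GTPase Efl1 (-0.50, adjusted p = 9.6e-04).

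Other RNA polymerase I genes had 5 of 18 higher, or 27.8%, close to the 23.2% of all tested genes. In edgeR 0 were lower (2 lower at an unadjusted p under 0.05 and 0 by DESeq2). Among the 18 were Polr2e, Polr2f, Polr2h, Polr2k and Polr2l, subunits not particular to this polymerase, and none of these was called. The higher genes included the factors Ubtf (0.83, adjusted p = 1.4e-04) and Rrn3 (0.53, adjusted p = 9.3e-04), which load the polymerase on ribosomal DNA. In the list of other snoRNP and modification genes 7 of 18 were higher (38.9%), with the acetyltransferase Nat10 (0.90, adjusted p = 3.0e-05) and the nucleolar phosphoprotein Tcof1 (0.83, adjusted p = 4.4e-05) foremost, and 1 was lower, the chaperone ATPase Ruvbl2 (-0.27, adjusted p = 0.043). RNA polymerase III, which makes 5S ribosomal RNA and transfer RNAs, had 6 of 21 genes higher, or 28.6%, also close to that share, with Polr3b at 0.58 (adjusted p = 0.001). Its 2 lower genes (9.52%, beside 23.5% of all tested genes) were Maf1, the repressor of this polymerase (-0.69, adjusted p = 9.0e-05), and Polr3gl, an alternative subunit (-0.56, adjusted p = 0.016). The exosome, which trims ribosomal RNA, had 6 of 13 higher (46.2%), with Exosc2 (1.18, adjusted p = 5.9e-05) and the nuclease Dis3 (0.63, adjusted p = 5.0e-04) foremost, and 1 lower, Mphosph6 (-0.53, adjusted p = 0.0051). Among genes of the ribosome's own proteins 8 of 76 tested were higher and 4 lower (10.5% and 5.26%, both under the shares of all tested genes), with a median log2 fold change of 0.06. Rpl10a (0.82, adjusted p = 1.2e-04) and Rpl27 (0.89, adjusted p = 0.0015) had the smallest adjusted p, and Rpl7, Rpl34, Rpl37 and Rpl39 were the 4 lower ones, at -0.25, -0.27, -0.25 and -0.28. These genes have many near-identical copies, so their counts, 1.15% to 1.25% of each library, depend on how shared reads were treated and are uncertain.

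**Figure D4:**
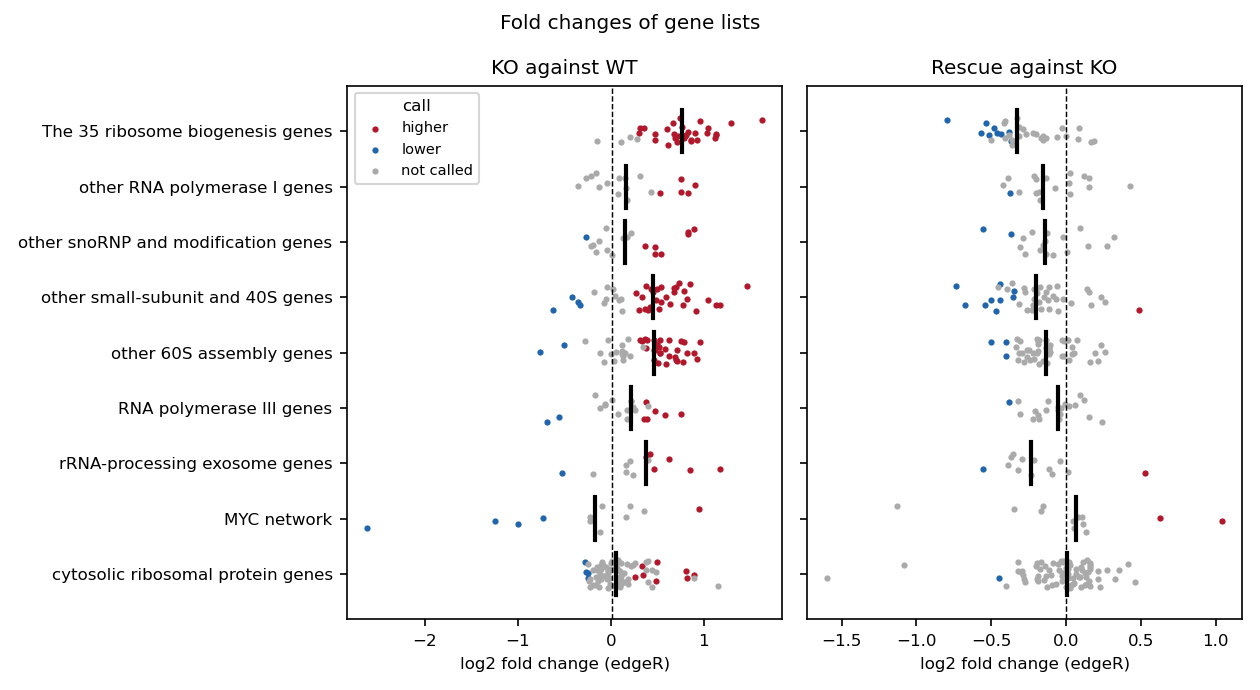
Fitted log2 fold change of each tested gene (points) in the 35 genes and in 8 further lists, for the KO against wild type on the left and the rescue against the KO on the right, with a bar at each list's median. Red points were called higher and blue points lower. In the left panel the medians are 0.77 for the 35 genes, 0.45 and 0.46 for the other small-subunit and 60S lists, and 0.06 for the ribosomal proteins. Both panels use the same KO libraries.

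In the rescue against the KO, 15 of the 128 other biogenesis genes were lower, or 11.7% beside 5.88% of all tested genes, and 1 was higher, or 0.78% beside 8.35%. The higher one was Wdr36 (0.49, adjusted p = 0.022). Of the genes named above, Nat10, Dhx37, Tsr2, Mrto4 and Ubtf were lower, at -0.56, -0.47, -0.73, -0.40 and -0.37 (adjusted p = 0.0048, 0.0084, 0.013, 0.036 and 0.043). Against wild type 34 were higher in the rescue, or 26.6% beside 10.2% of all tested genes, and 1 was lower, or 0.78% beside 12.0%. The lower one was Las1l (-0.50, adjusted p = 0.0044).

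Myc, the transcription factor that is known to drive ribosome biogenesis genes, had its transcript called in the opposite direction. Its normalised CPM was 231 and 234 in the wild-type libraries, 152 and 128 in the KO libraries and 201 and 233 in the rescue libraries. Both KO libraries were below all others, and Rescue 2 was level with wild type. Myc was lower in the KO (log2 fold change -0.73 with SE 0.10 and adjusted p = 1.8e-04) and higher in the rescue than in the KO (log2 fold change 0.63 with SE 0.10 and adjusted p = 0.004), a call lost without KO 2 (adjusted p = 0.063). The rescue did not differ from wild type beyond the spread (log2 fold change -0.10 with SE 0.10 and adjusted p = 0.53). In the MYC network of 12 tested genes 4 were lower in the KO, or 33.3% beside 23.5% of all tested genes. These were Myc, Mycl (-2.63, adjusted p = 1.2e-05), Mxi1 (-1.25, adjusted p = 6.0e-05) and Mxd1 (-1.005, adjusted p = 0.0011). The 1 higher gene, or 8.33% beside 23.2%, was Mxd3 (0.94, adjusted p = 8.0e-04). Mxi1, Mxd1 and Mxd3 code for proteins that compete with MYC for its partner MAX. Mxi1, like Myc, was higher in the rescue than in the KO (log2 fold change 1.04 with SE 0.15 and adjusted p = 0.0025). MYC protein was not measured.

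Other features of the 35 genes were read from the annotation. They lie on 16 chromosomes, with 7 genes on chromosome 1 and 6 on chromosome 11. The gene bodies of 7 of the 35, or 20%, hold snoRNA genes on the same strand, beside 2.00% of 12274 annotated tested genes. These 7 held 21 snoRNA genes, 5 in Nop56, 4 in Nop58, 3 each in Wdr43, Gnl3 and Ncl, 2 in Tsr1 and 1 in Dkc1. SnoRNAs themselves were not assessed, as oligo-dT selection takes polyadenylated RNA. Exons of 18 of the 35 genes (51.4%) overlap a gene on the opposite strand, beside 32.9% of tested genes. Among them are Rrp9 with Parp3, Nop56 with Idh3b, Nhp2 with Rmnd5b, Gnl3 with Pbrm1, Mybbp1a with Spns2, Tsr1 with Srr and Heatr1 with Lgals8. The strand setting of the counting is not given in the sources used here, so reads of such pairs may not have been told apart, while Rrp12, Nolc1, Ddx21, Utp20, Nop2, Rrs1, Fbl and Ncl have no such overlap.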

How the data were processed

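RNA-seq gene counts of 6 KP2 libraries in 3 groups were used. The deposited files hold 41388 genes, each with its count of reads, CPM and RPKM, per the file headers. The deposited CPM equalled the count scaled by the library total, and the deposited RPKM divided it by the length listed for the gene. Per the submitters' processing notes the tools were bcl2fastq, STAR 2.0.4b, Subread and featureCounts 1.45 with build GRCm38. For strand setting, annotation release and shared reads, the sources used here give nothing. Per the labels, RNA was selected with oligo-dT.

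The 35 members and the further lists were chosen with earlier results of these data known. Symbols came from GENCODE M21 (40254 identifiers matched), and promoters from RefSeq on GRCm38.p6. Coordinates are those of the files, and 22 of the 35 genes have the same start and end in GENCODE M21. Genes passing edgeR's filterByExpr (minimum count 10, minimum total 15) were scaled by TMM and tested in 1 quasi-likelihood fit over all 6 libraries (edgeR 4.0.16, R 4.3.3), with 1 mean per group, 3 residual degrees of freedom and Benjamini-Hochberg adjustment over 12339 genes. SE was computed as the size of the log2 fold change over the root of F. RPKM served only to compare levels between genes. The script was tested on simulated data. Alternatives were DESeq2 1.42.0, 3 other scalings, 2 other filters (none, or a minimum count of 50), the compared groups alone, a replicate block, a test against 1.5-fold and each library left out. In each role class the 2 members with the smallest and the 1 with the largest adjusted p in the KO were given in every library, as were members not called in the KO and members called in the rescue against the KO. Of each further list the 2 called genes with the smallest adjusted p in the KO and up to 5 that moved against the others were named, with Irak4 and Myc. Snu13, Nop10, Cdh5, Kdr, Col1a1, Col3a1 and the ductal genes given singly were named after their values were seen. A single gene of the leukocyte marker list is not reported here.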

Additional observations from a re-analysis of the deposited data

How the results depend on the processing

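For the KO against wild type, the calls of the 35 genes kept their direction in each of the alternatives run. Counts moved as follows, and the cause was not tested. With library totals the members' median was 0.89 and calls over all genes were 4013 higher and 2237 lower (2867 and 2905 with TMM). For the rescue against the KO, library totals gave 19 members lower and 837 genes higher and 1185 lower (1030 and 726 with TMM), and in the rescue against wild type 1690 higher and 1214 lower (1263 and 1481 with TMM). Against 1.5-fold, the KO comparison called 10 members and 479 genes higher and 927 lower, the rescue against the KO 0 members, 24 genes higher and 14 lower, and the rescue against wild type 0 members, 198 genes higher and 353 lower. Members lower in the rescue than in the KO numbered 20 with no filter, 4 by DESeq2 (378 genes lower in all) and 2 with the compared groups alone (667 genes higher, 377 lower). For the rescue against wild type DESeq2 called 751 genes higher.

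The replicate numbers were not shown to pair the libraries: across genes the difference of library 1 and 2 correlated between groups at 0.04, -0.15 and -0.19. A replicate block gave 30 members higher in the KO, 6 lower in the rescue against the KO (429 genes lower in all) and 20 higher in the rescue against wild type. Leaving out 1 library leaves a group with 1, which is then assumed to vary like the others. Over these fits the KO comparison called 1688 to 3297 genes higher. Between rescue and KO 0 to 25 members were lower, 139 to 1849 genes higher and 64 to 1596 lower. Between rescue and wild type 5 to 31 members were higher, 417 to 1699 genes higher and 691 to 1953 lower.

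The 35 genes, Irak4 and Myc were followed singly under the alternatives, and genes of the further lists were not. Among those followed, signs reversed only for differences that were not called with all libraries and TMM. In the rescue against the KO these were Fbl (0.00089 with DESeq2's size factors, 0.0050 with the stricter filter), and, with 1 library left out, Fbl (-0.169 to 0.143), Pes1 (-0.174 to 0.072), Noc2l (-0.146 to 0.111), Ddx18 (-0.0375 to 0.226) and Wdr43 (-0.388 to 0.0191). Against wild type they were Ddx10 (-0.0806 to 0.167), Utp18 (-0.0445 to 0.495), Tsr1 (-0.0262 to 0.555) and Rrp1b (-0.0885 to 0.235).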
